A study of Homo sapiens with 12 samples.

Results

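Cells carrying the hairpin shRARRES2_1 were compared with cells carrying the hairpin shRARRES2_2, both directed against RARRES2. The comparison used 6 of the 12 libraries of the study and the 14172 genes, of 58381 in the table, that reached at least 1 CPM in at least 3 of these 6 libraries; the choice used levels only, not the difference between the hairpins. The cells were 786-O, a line established from a clear cell renal carcinoma and without functional VHL protein, grown in DMEM with 10% FBS. The 4 groups were cells infected with lentivirus encoding shRARRES2_1, shRARRES2_2, shRARRES2_3 or the control hairpin shGFP, with 3 libraries in each, so that the control cells were infected too. The other 6 libraries, with shRARRES2_3 and shGFP, added to the estimate of spread and show on which side the 2 hairpins differ from the rest. The labels name 1 cell line and do not say whether replicates were separate infections or cultures, so the spread on which the p-values rest may be technical. The hairpins' own sequences were not used here.

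A short hairpin RNA is processed into a small interfering RNA that leads to degradation of the messenger it matches, and different hairpins to the same gene share that target but not their sequence. Here each hairpin is also its own set of infected cells, so an effect of the hairpin and one of the infection or culture cannot be told apart. RARRES2 encodes chemerin, a secreted protein that signals through the receptors CMKLR1 and GPR1 and is bound without signalling by CCRL2. In cells without VHL the hypoxia-inducible factors escape degradation, and their subunit EPAS1 (HIF-2α) drives much of the programme of clear cell renal carcinoma, including genes of angiogenesis and lipid storage.

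The 6 libraries held 17675865 to 23594195 reads on genes, at which 3 reads corresponded to 0.131 to 0.178 CPM, and 21217 to 27484 genes were detected in them. The mitochondrial genome gave 3.69% to 5.49% of these reads. Replicates 2 and 3 of shRARRES2_1 lay far closer to each other than any other replicates. Their log2 levels correlated with r = 0.997 across genes, and their counts differed by a mean chi-square of 3.15 per gene, where 1 is sampling noise, against at least 72.9 in the other 11 pairs of replicates. They differed by more than sampling noise and were counted as separate libraries, but the labels do not say whether they came from separate RNA samples, and n = 3 includes both. With the pair averaged, limma called 0 genes, against 25 with both, while 1030 genes had an unadjusted p under 0.05. Libraries did not always lie closest to their own group. Replicate 1 of shRARRES2_1 correlated more with replicate 1 of shRARRES2_3 (r = 0.978) than with its own replicates 2 and 3 (r = 0.937 and 0.930). Without replicate 1 of shRARRES2_1, 20 genes were called, but only 11 of them were among the 25, of which 21 were still tested. Replicate 2 of shRARRES2_3 was closest to replicate 2 of shGFP (r = 0.981). In that shGFP library the keratinocyte gene KRT5 had 168.7 CPM, against 0 and 3.81 CPM in shGFP replicates 1 and 3, and the summed keratinocyte markers reached 595 CPM. Without shGFP replicate 2, 21 genes were called, 18 of them among the 25, and without shRARRES2_3 replicate 2, 39, which included all 25. Of 20 markers of renal tubule and renal carcinoma 13 were tested, and PAX8, a transcription factor of the renal lineage, averaged 326 CPM with shRARRES2_1 and 428 CPM with shRARRES2_2. The summed level of the renal markers was 3372 to 7026 CPM with shRARRES2_1 and 3114 to 3596 CPM with shRARRES2_2. The highest sum, in replicate 1 of shRARRES2_1, was mostly KRT8 (3531 CPM) and VIM (2105 CPM). In replicates 2 and 3 of shRARRES2_1 KRT8 had 791 and 766.5 CPM, and in the shRARRES2_2 libraries 1054, 1130 and 603 CPM.

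The targeted gene was measured first. RARRES2 had 40.5, 41.0 and 37.5 CPM in the 3 shRARRES2_1 libraries, against 92.6, 53.5 and 73.5 CPM in the 3 shRARRES2_2 libraries. All shRARRES2_1 libraries lay below all shRARRES2_2 libraries, and both groups lay far below the control. The means were 39.7 ± 1.91 CPM with shRARRES2_1 and 73.2 ± 19.5 CPM with shRARRES2_2 (SD, n = 3 each), beside 44.8 ± 4.72 CPM with shRARRES2_3 and 587 ± 192 CPM with shGFP. These levels amount to 6.76% of the shGFP mean with shRARRES2_1 and 12.5% with shRARRES2_2. Between the 2 hairpins the log2 difference was -0.83 (95% interval -1.43 to -0.24), and it did not pass the limma test over all genes (adjusted p = 0.299). An exact two-sided permutation test of the 6 values gave p = 0.1, the smallest that 3 against 3 libraries allow. Here and below, a log2 difference is shRARRES2_1 minus shRARRES2_2 on the log2(CPM + 1) scale, so that a positive value means higher with shRARRES2_1, and this scale understates the differences of genes near 1 CPM.

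Among the receptors, CCRL2 had 13.2, 7.85 and 7.26 CPM with shRARRES2_1, against 1.32, 1.902 and 0.872 CPM with shRARRES2_2. The groups did not overlap, and the other libraries lay between 0.549 and 2.96 CPM with shRARRES2_3 and between 0 and 0.676 CPM with shGFP. The log2 difference of CCRL2 was 2.12 (95% interval 1.28 to 2.96), just short of the limma threshold (adjusted p = 0.0581, and 0.00623 with DESeq2 to 0.267 with edgeR over the alternatives). GPR1 averaged 4.38 ± 1.61 CPM with shRARRES2_1 and 4.08 ± 1.33 CPM with shRARRES2_2 (SD, n = 3 each), with an interval of -1.60 to 1.74 on the log2 scale. CMKLR1, the signalling receptor, had at most 4 reads in any of the 12 libraries and was not tested. In bulk RNA a difference in RNA per cell and a difference in the share of cells that make it cannot be told apart, which holds for every level given here.

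Over the 14172 genes, 25 passed the limma test at an adjusted p under 0.05, which is 0.176% of the genes tested. With shRARRES2_1 13 genes were higher (0.0917%) and 12 were lower (0.0847%) than with shRARRES2_2. Among the called genes, the largest differences were those of GOLGA7B, SERPINB2, NDRG1 and CLDN4, higher with shRARRES2_1, and of MTPN, PPIL1, TMX1 and MARCKSL1, lower with shRARRES2_1. Many more genes lay short of the threshold. An unadjusted p under 0.05 was reached by 1443 genes (10.2%), where 709 would be expected if no gene differed. Where genes vary together, the number reached by chance can lie far from 709. The 6 libraries did not overlap for 3171 genes (22.4%). Between the 5% and 95% quantiles the log2 differences ran from -0.81 to 0.84, with a median of -0.03, with 47% of genes above 0 and 53% below. The calls rested on few libraries. None remained when shRARRES2_1 replicate 2, shRARRES2_2 replicate 1 or shRARRES2_2 replicate 2 was left out, when the close pair of shRARRES2_1 was averaged, or when the spread came from the 6 libraries alone, although 912 to 1797 genes then had an unadjusted limma p under 0.05. With edgeR 9 genes were called and with DESeq2 284.

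**Figure D1:**
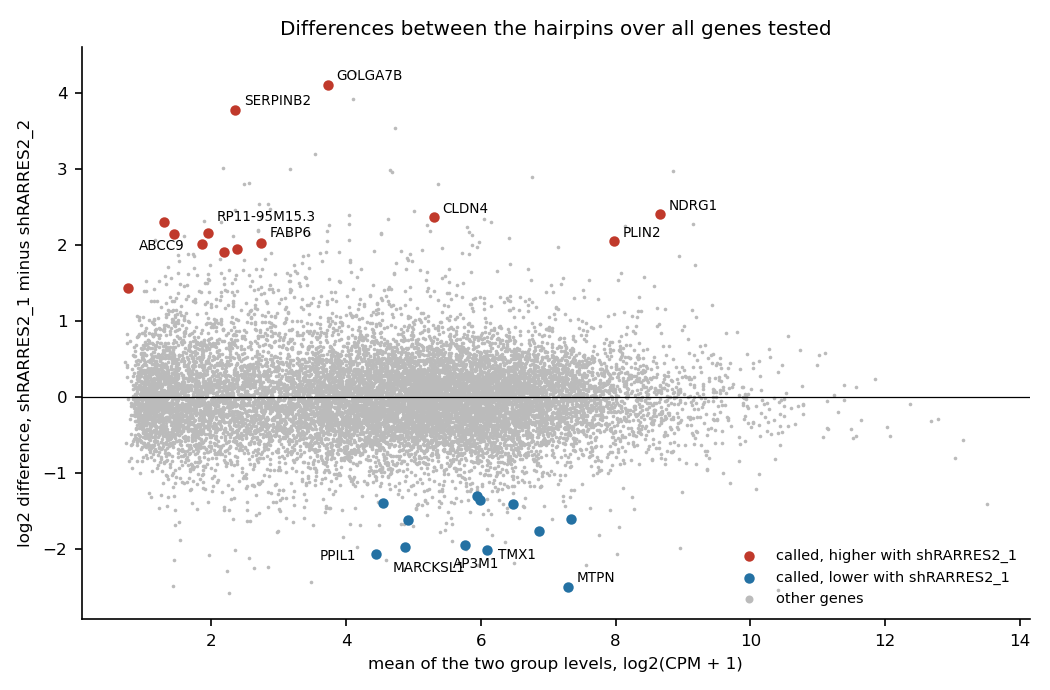
The log2 difference of shRARRES2_1 minus shRARRES2_2 (vertical) against the mean level of the gene in both groups as log2(CPM + 1) (horizontal), 1 point per gene for the 14172 genes tested. The 13 genes called higher with shRARRES2_1 (red) include NDRG1 and PLIN2 at high levels and a cluster at low levels, whereas the 12 called lower (blue) lie at middle to high levels.

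SERPINB2 and CLDN4 were among the genes called higher. SERPINB2 encodes an inhibitor of the urokinase plasminogen activator. It had 5.47, 27.3 and 26.3 CPM with shRARRES2_1, against 0, 0.535 and 0.262 CPM with shRARRES2_2. The gene was read 103 to 563 times in each shRARRES2_1 library and at most 9 times in each shRARRES2_2 library, and it reached at most 0.811 CPM in the other 6 libraries. Its log2 difference was 3.78 (SE 0.493, limma adjusted p = 0.0142). CLDN4, a tight junction claudin, had 86.1, 80.4 and 80.5 CPM with shRARRES2_1, against 18.9, 6.54 and 27.5 CPM with shRARRES2_2. Its log2 difference was 2.36 (SE 0.394, limma adjusted p = 0.0391), and the shGFP libraries lay between both groups at 33.2 to 43.7 CPM.

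ENPP3 and LIPH encode extracellular enzymes, a nucleotide pyrophosphatase and a phospholipase that makes lysophosphatidic acid. Both were low: ENPP3 reached 24, 133 and 141 reads in the shRARRES2_1 libraries, against 0, 0 and 2 reads in the shRARRES2_2 libraries. LIPH reached 2.815, 5.52 and 5.87 CPM with shRARRES2_1, against 0.635, 0 and 0.218 CPM with shRARRES2_2. The log2 differences were 2.30 for ENPP3 and 2.14 for LIPH (limma adjusted p = 0.0492 and 0.0205). For LIPH the shRARRES2_1 libraries stood above the other 9, whereas for ENPP3 the shRARRES2_2 libraries were the lowest, with 0.14 to 0.406 CPM with shRARRES2_3 and 0.676 to 1.41 CPM with shGFP. The highest shRARRES2_2 library had 0.0872 CPM of ENPP3, 2 reads, and the lowest shRARRES2_3 library 3 reads.

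GOLGA7B had the largest difference of all genes called. Its product is a partner of the palmitoyltransferase ZDHHC5, which attaches lipid to membrane proteins. It had 30.9, 60.5 and 64.9 CPM with shRARRES2_1, against 0.793, 1.43 and 4.80 CPM with shRARRES2_2. The other libraries resembled shRARRES2_2, with 0.349 to 2.32 CPM with shRARRES2_3 and 0.935 to 1.91 CPM with shGFP. The means were 52.1 ± 18.5 CPM with shRARRES2_1 and 2.34 ± 2.15 CPM with shRARRES2_2 (SD, n = 3 each), a 22.3-fold ratio, and the log2 difference was 4.11 (SE 0.482, limma adjusted p = 0.0101). GOLGA7B is read from the plus strand of chromosome 10 in GRCh38.

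ABCC9, FABP6 and FAM174B were called at low levels. ABCC9, the regulatory subunit of an ATP-sensitive potassium channel, averaged 6.22 ± 1.82 CPM with shRARRES2_1 and 0.807 ± 0.596 CPM with shRARRES2_2. FABP6, a bile acid binding protein, averaged 12.4 ± 3.96 CPM with shRARRES2_1 and 2.32 ± 1.13 CPM with shRARRES2_2. FAM174B averaged 9.003 ± 1.15 CPM with shRARRES2_1 and 1.69 ± 0.936 CPM with shRARRES2_2 (SD, n = 3 each throughout). Their log2 differences were 2.01, 2.02 and 1.95 (limma adjusted p = 0.0260, 0.0470 and 0.0279), and in none of them did the 6 libraries overlap.

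The called genes also held 2 noncoding RNAs. The lincRNA RP11-95M15.3 had 5.68, 7.71 and 7.59 CPM with shRARRES2_1, against 0.212, 0.773 and 1.66 CPM with shRARRES2_2 (log2 difference 2.15, limma adjusted p = 0.0200). RP11-24F11.2, annotated as antisense, had 45, 32 and 30 reads with shRARRES2_1, against 0, 1 and 0 reads with shRARRES2_2 (log2 difference 1.44, limma adjusted p = 0.0302). It lies on the minus strand of chromosome 3, and its annotated start is 104 bases from that of CCRL2 on the plus strand. The sources used here do not state whether counting used strand, so reads of this pair may not be separable, and RP11-24F11.2 and CCRL2 were high in the same 3 libraries.

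**Figure D2:**
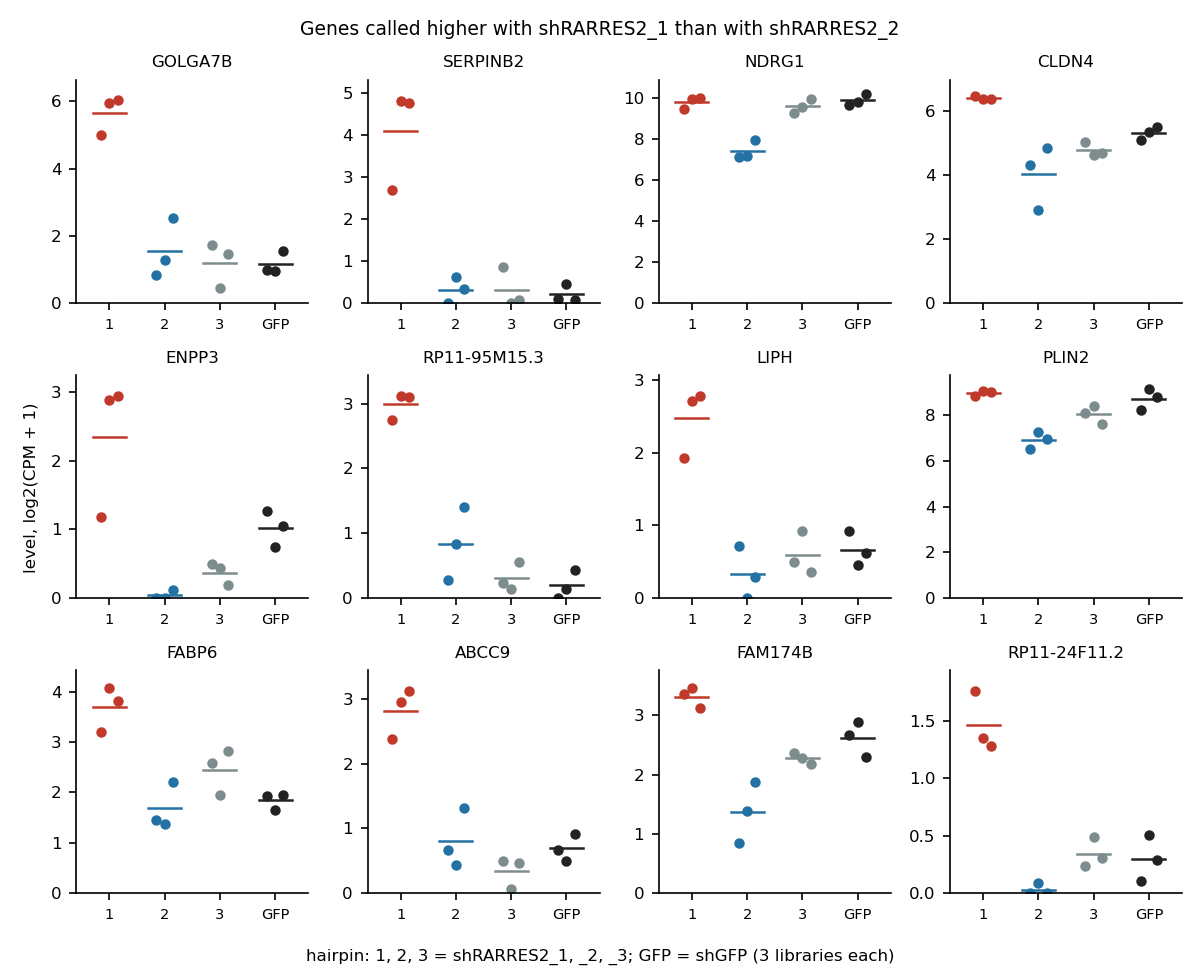
Level as log2(CPM + 1) in each of the 12 libraries (points, from left to right replicates 1 to 3) with the group mean (bar) for 12 of the 13 genes called higher with shRARRES2_1 than with shRARRES2_2. For GOLGA7B and SERPINB2 the shRARRES2_1 libraries stand above all others, while for NDRG1 and PLIN2 the shRARRES2_2 libraries stand below all others.

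NDRG1 and PLIN2 belong to the 35 HIF target genes tested. NDRG1, a stress and hypoxia responsive gene, had 722, 1013 and 1019 CPM with shRARRES2_1, against 138, 143 and 251 CPM with shRARRES2_2. It had 616 to 1017 CPM with shRARRES2_3 and 824 to 1194 CPM with shGFP, so that shRARRES2_2 stood apart from the other 9 libraries and shRARRES2_1 did not. The difference was 2.40 on the log2 scale (SE 0.334, limma adjusted p = 0.0197). PLIN2, which coats the lipid droplets that give clear cell carcinoma its name, had 456, 540 and 523 CPM with shRARRES2_1, against 91.6, 155 and 125.5 CPM with shRARRES2_2. Here too the shRARRES2_2 libraries were the lowest of the 12, beside 197 to 343 CPM with shRARRES2_3 and 298 to 573 CPM with shGFP. The log2 difference of PLIN2 was 2.05 (SE 0.318, limma adjusted p = 0.0279).

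Of the 35 HIF targets 2 were called, both higher with shRARRES2_1, and 24 lay above 0 and 11 below, with a median log2 difference of 0.44, beside -0.03 over all genes. Over all genes 0.0917% were called higher and 47% lay above 0. The HIF list was chosen with earlier results of these data known, so its counts are not a test of the list. Without shRARRES2_2 replicate 2 the median of the list was 0.29. In 11 of the HIF targets all shRARRES2_1 libraries lay above all shRARRES2_2 libraries and in 3 below, against 9.06% and 13.3% of all genes. ANGPTL4, a secreted inhibitor of lipoprotein lipase, had 50.8, 58.8 and 50.5 CPM with shRARRES2_1, against 0.688, 25.8 and 6.54 CPM with shRARRES2_2. ADM, the vasodilator adrenomedullin, had 104, 124 and 122 CPM with shRARRES2_1, against 21.5, 23.6 and 47.7 CPM with shRARRES2_2. Neither passed the limma test (log2 difference 2.96 with adjusted p = 0.267 for ANGPTL4, and 1.97 with adjusted p = 0.179 for ADM). VEGFA, the angiogenic growth factor, overlapped between the groups, at 311, 461 and 447 CPM with shRARRES2_1 and 146, 117.5 and 402 CPM with shRARRES2_2. The other way lay PFKFB4, a regulator of glycolysis, with 30.4, 30.1 and 28.8 CPM with shRARRES2_1, against 57.1, 66.7 and 59.9 CPM with shRARRES2_2 (log2 difference -1.01, limma adjusted p = 0.178). The levels of LDHA, PGK1 and CCND1, also HIF targets, overlapped between the groups.

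**Figure D3:**
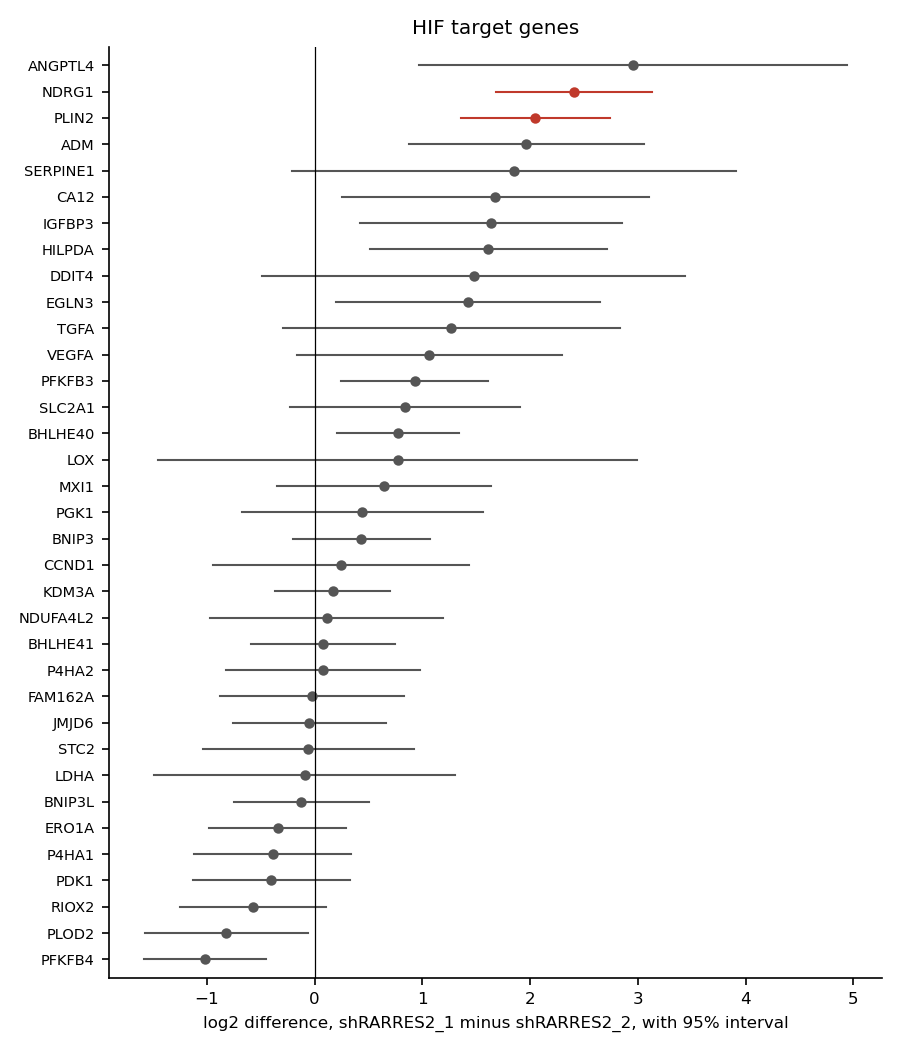
The log2 difference of shRARRES2_1 minus shRARRES2_2 (points) with its 95% interval (lines) for each of the 35 HIF targets tested, ordered by size. NDRG1 and PLIN2 (red) were called, ANGPTL4 has a larger difference with a far wider interval, and 11 genes lie below 0.

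EPAS1 itself had 232, 265.5 and 268 CPM with shRARRES2_1, against 90.6, 72.6 and 94.95 CPM with shRARRES2_2. All 6 of these libraries lay below every shRARRES2_3 and shGFP library, which had at least 299.7 CPM. The log2 difference was 1.56 (SE 0.323, 95% interval 0.86 to 2.27), and it missed the limma threshold (adjusted p = 0.0972) but passed with DESeq2 (adjusted p = 0.000654), and the alternatives reached up to 0.429. HIF1A averaged 119 ± 30.7 CPM with shRARRES2_1 and 113 ± 39.5 CPM with shRARRES2_2 (SD, n = 3 each), and its interval of -0.87 to 1.03 spans 0. The partner subunits ARNT2 and ARNT lay in opposite directions. ARNT2 had 2.34, 1.55 and 1.62 CPM with shRARRES2_1, against 9.84, 14.3 and 13.5 CPM with shRARRES2_2 (log2 difference -2.25, limma adjusted p = 0.150). ARNT averaged 44.6 ± 5.84 CPM with shRARRES2_1 and 28.55 ± 0.685 CPM with shRARRES2_2 (SD, n = 3 each). For ARNT the groups did not overlap (log2 difference 0.62, limma adjusted p = 0.423). Of the 13 genes of the HIF machinery tested none was called, and 6 lay above and 7 below 0, where 53% of all genes lay below.

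The promoters of 3 of these HIF targets are shown because they hold the core of the hypoxia response element, ACGTG or GCGTG, which is set in capitals on either strand. The letters are 100 bases of RefSeq sequence (GRCh38.p14) in the direction of the gene, from chr9:19127529-19127628 (minus strand) for PLIN2, chr11:10304922-10305021 (plus strand) for ADM and chr19:8363905-8364004 (plus strand) for ANGPTL4.
PLIN2: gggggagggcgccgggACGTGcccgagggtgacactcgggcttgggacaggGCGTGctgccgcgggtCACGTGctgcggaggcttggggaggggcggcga
ADM: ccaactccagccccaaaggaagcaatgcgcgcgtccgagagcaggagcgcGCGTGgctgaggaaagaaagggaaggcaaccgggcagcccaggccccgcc
ANGPTL4: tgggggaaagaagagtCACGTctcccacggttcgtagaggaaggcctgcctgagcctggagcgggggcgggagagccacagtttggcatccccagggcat
In PLIN2 the last match is read on both strands at once, which makes 4 matches in the 250 bases before the start, against 1 each in ADM and ANGPTL4. The core was found within 250 bases before the start in 20 of the 26 HIF targets that had a RefSeq promoter (76.9%), and in 43.2% of all 35116 promoters. It was in 4 of 10 promoters of genes called higher and 5 of 10 of genes called lower. A match describes the letters only and is no evidence that a factor binds there.

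MTPN had the largest difference among the genes called lower with shRARRES2_1. It encodes myotrophin, a small protein that binds the capping protein of actin filaments. It had 42.3, 75.8 and 80.9 CPM with shRARRES2_1, against 386, 372 and 339 CPM with shRARRES2_2. The shRARRES2_1 libraries stood below all others, since MTPN had 296.5 to 367 CPM with shRARRES2_3 and 263 to 382 CPM with shGFP. The mean was 5.51-fold lower with shRARRES2_1, and the log2 difference was -2.50 (SE 0.282, limma adjusted p = 0.0101). CAPZA1, an alpha subunit of that capping protein, had 65.4, 104 and 106 CPM with shRARRES2_1, against 310, 280 and 244 CPM with shRARRES2_2 (log2 difference -1.61, SE 0.244, limma adjusted p = 0.0260). Its other alpha subunit CAPZA2 and its beta subunit CAPZB overlapped between the groups (log2 differences -0.06 and -0.21). MARCKSL1, which binds and bundles actin at the membrane, had 14.1, 14.4 and 12.8 CPM with shRARRES2_1, against 55.0, 59.6 and 56.7 CPM with shRARRES2_2 (log2 difference -1.98, SE 0.286, limma adjusted p = 0.0205). For MTPN, CAPZA1 and MARCKSL1 the shRARRES2_1 libraries lay below each of the other 9 libraries. Of the 40 genes of the actin cytoskeleton tested these 3 were called, and 31 lay below 0 and 9 above, with a median log2 difference of -0.23. Over all genes 0.0847% were called lower and 53% lay below 0, with a median of -0.03. The actin list was chosen with earlier results of these data known, so its counts are not a test of the list. The list's median was -0.45 without shRARRES2_1 replicate 1 and -0.12 without replicate 2 or -0.13 without replicate 3 of that hairpin.

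RAB1A, AP3M1, DENND6A and TMX1, which encode proteins of internal membranes, were also called lower. RAB1A, the GTPase of transport between the endoplasmic reticulum and the Golgi, had 49.0, 68.1 and 70.7 CPM with shRARRES2_1, against 220.4, 192.5 and 227 CPM with shRARRES2_2. Its level in the other 6 libraries was 175 to 209.7 CPM, so the groups were narrow and shRARRES2_1 stood apart (log2 difference -1.77, SE 0.218, limma adjusted p = 0.0101). AP3M1, a subunit of the AP-3 adaptor of endosomal and lysosomal sorting, had 18.75, 32.2 and 29.7 CPM with shRARRES2_1, against 123, 92.6 and 100.4 CPM with shRARRES2_2. In the other libraries AP3M1 had 70.6 to 79.8 CPM, between both groups (log2 difference -1.96, SE 0.241, limma adjusted p = 0.0101). DENND6A, an activator of Rab14, averaged 13.4 ± 1.48 CPM with shRARRES2_1 and 36.8 ± 0.789 CPM with shRARRES2_2 (SD, n = 3 each; log2 difference -1.39, limma adjusted p = 0.0492). TMX1, a thioredoxin-related protein of the endoplasmic reticulum membrane, averaged 33.3 ± 9.81 CPM with shRARRES2_1 and 135.5 ± 27.1 CPM with shRARRES2_2 (SD, n = 3 each; log2 difference -2.02, limma adjusted p = 0.0170).

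The other 5 genes called lower have unlike roles. PPIL1, a peptidyl-prolyl isomerase of the spliceosome, had 10.8, 10.2 and 7.69 CPM with shRARRES2_1, against 37.3, 59.9 and 34.9 CPM with shRARRES2_2 (log2 difference -2.06, limma adjusted p = 0.0366). TOR1AIP1, a protein of the inner nuclear membrane, had 12.3, 19.5 and 16.9 CPM with shRARRES2_1, against 46.9, 64.6 and 44.4 CPM with shRARRES2_2 (log2 difference -1.62, limma adjusted p = 0.0279). Means ± SD of 3 libraries each follow for the other 3. RNF11, a RING finger ubiquitin ligase, averaged 54.3 ± 13.3 CPM with shRARRES2_1 and 143 ± 8.57 CPM with shRARRES2_2 (log2 difference -1.41, limma adjusted p = 0.0401). CPOX, an enzyme of haem synthesis, averaged 39.1 ± 7.78 CPM with shRARRES2_1 and 100.1 ± 3.50 CPM with shRARRES2_2 (log2 difference -1.36, limma adjusted p = 0.0328). MED28, a subunit of the Mediator complex, averaged 37.7 ± 1.61 CPM with shRARRES2_1 and 96.0 ± 18.8 CPM with shRARRES2_2 (log2 difference -1.31, limma adjusted p = 0.0325). Among the genes called lower, 4 overlap a gene on the other strand that was tested and not called, namely CAPZA1 with ST7L, RAB1A with CEP68, AP3M1 with VCL and PPIL1 with C6orf89, and the partners' log2 differences were -0.24, -0.26, -0.82 and -0.44.

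**Figure D4:**
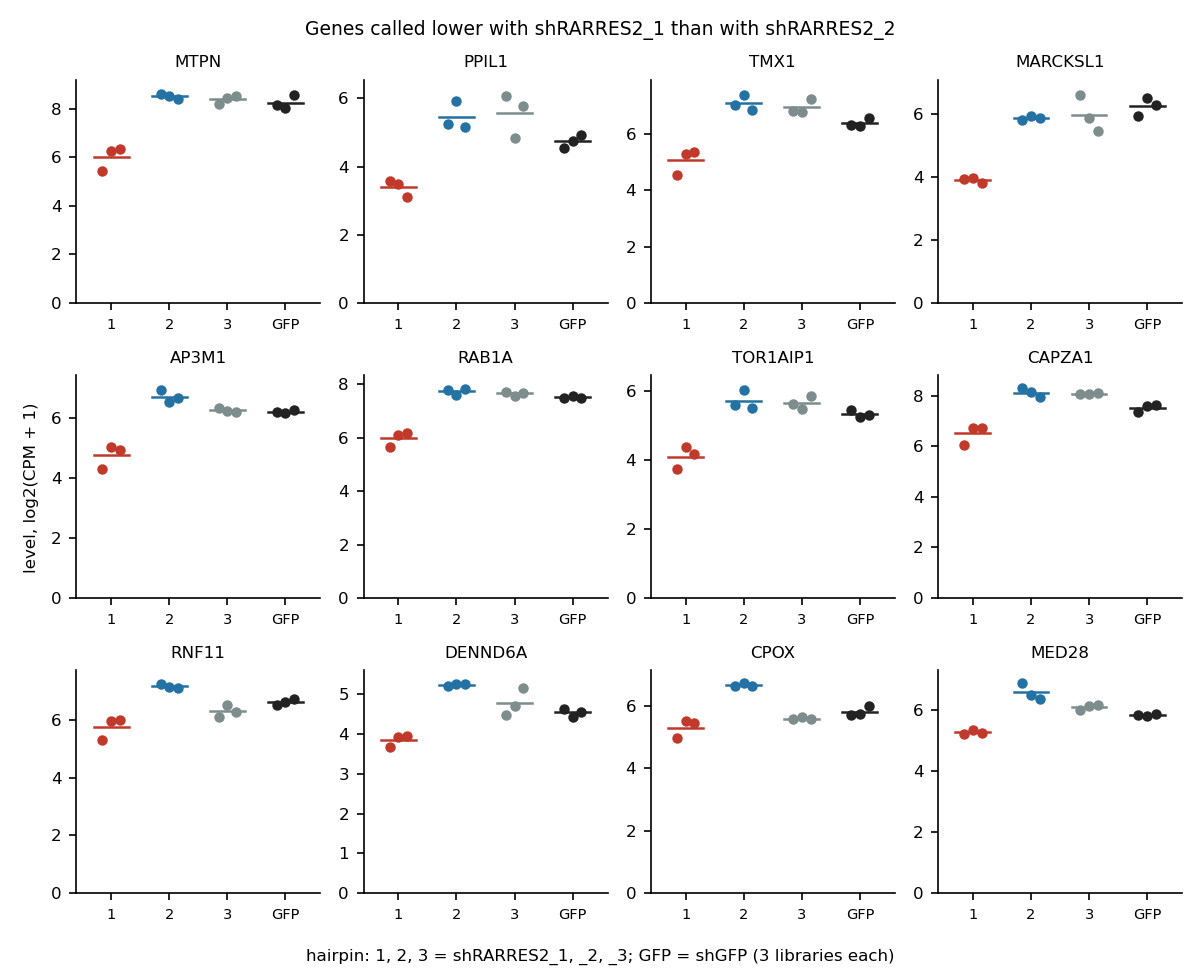
Level as log2(CPM + 1) in each of the 12 libraries (points, from left to right replicates 1 to 3) with the group mean (bar) for the 12 genes called lower with shRARRES2_1 than with shRARRES2_2. For MTPN, RAB1A and MARCKSL1 the shRARRES2_2 libraries sit beside shRARRES2_3 and shGFP, whereas for CPOX and AP3M1 they sit above them.

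The levels of the 25 genes were set beside the shRARRES2_3 and shGFP libraries, which also entered the estimate of spread. In 14 of them, 7 higher and 7 lower, the shRARRES2_1 libraries stood apart from all 9 others. In 4, all higher with shRARRES2_1, the shRARRES2_2 libraries stood apart from all 9 others, among them NDRG1, PLIN2 and, by 1 read, ENPP3. In the remaining 7, shRARRES2_1 and shRARRES2_2 lay on opposite sides of shRARRES2_3 and shGFP. These were FAM174B and RP11-24F11.2, higher with shRARRES2_1, and MED28, CPOX, DENND6A, RNF11 and AP3M1, lower with shRARRES2_1. For RP11-24F11.2 this rests on depth, since shRARRES2_2 replicate 2 (0.0595 CPM) and shGFP replicate 1 (0.0742 CPM) had 1 read each. The called genes lay on many chromosomes, 13 higher genes on 11 and 12 lower genes on 8. In GENCODE 29 the median length of the 3′ untranslated region was 865 bases in the 11 protein-coding genes called higher and 1888.5 bases in the 12 called lower, beside 1005 bases in the 12273 protein-coding genes tested.

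Genes of the interferon response, the antiviral programme of the cell, showed large differences that depended on single libraries. None of the 41 genes tested was called, although 40 lay above 0 and 1 below, where 47% of all genes lay above. The median log2 difference of the list was 1.18. In 16 of its genes all shRARRES2_1 libraries lay above all shRARRES2_2 libraries, as in 9.06% of all genes. ISG15, a ubiquitin-like antiviral protein, had 939, 373 and 351 CPM with shRARRES2_1, against 263, 31.5 and 133 CPM with shRARRES2_2 (log2 difference 2.25, 95% interval -0.82 to 5.32, limma adjusted p = 0.678). IFI27 had 999, 826 and 773 CPM with shRARRES2_1, against 455, 9.69 and 274 CPM with shRARRES2_2. OAS2, which makes the oligoadenylates that activate RNase L, had 235, 176 and 178 CPM with shRARRES2_1, against 103, 1.43 and 71.2 CPM with shRARRES2_2. In each case replicate 2 of shRARRES2_2 was the lowest by far, and the other groups held such libraries too, since IFI27 had 6.43 to 905 CPM with shRARRES2_3 and 13.1 to 872 CPM with shGFP. The list's median level was 72.6 to 80.0 CPM in the shRARRES2_1 libraries, against 69.4, 14.4 and 51.1 CPM in shRARRES2_2 replicates 1, 2 and 3. Without shRARRES2_2 replicate 2 the median log2 difference of the list was 0.41.

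Interferon genes carry a well known promoter element, searched here on both strands as GAAA, any 2 bases (NN) and GAAA again, and set in capitals in the promoters of ISG15 and IFI27, whose genes showed these swings. The letters are 100 bases of RefSeq sequence (GRCh38.p14) from chr1:1013337-1013436 (plus strand) for ISG15 and chr14:94110584-94110683 (plus strand) for IFI27.
ISG15: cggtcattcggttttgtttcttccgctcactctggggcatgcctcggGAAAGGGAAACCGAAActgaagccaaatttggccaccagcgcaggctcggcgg
IFI27: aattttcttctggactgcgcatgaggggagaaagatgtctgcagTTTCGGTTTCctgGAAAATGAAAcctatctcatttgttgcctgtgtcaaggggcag
In ISG15 a pair of matches overlaps, and in IFI27 a match on the minus strand is followed by a match on the plus strand. The element was found within 250 bases before the start in 19 of the 31 interferon genes with a RefSeq promoter (61.3%), against 3.02% of all 35116 promoters. It was in none of the 10 promoters of genes called higher and none of the 10 of genes called lower.

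**Figure D5:**
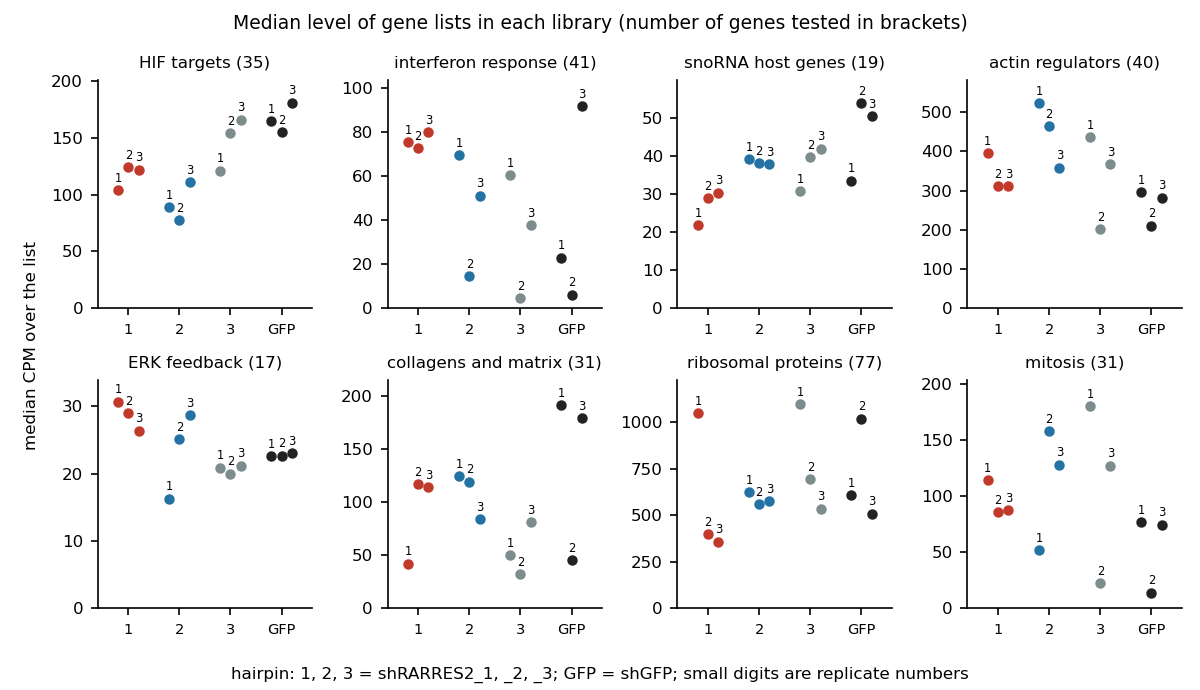
Median CPM over 8 gene lists in each of the 12 libraries, with the number of genes tested in brackets above each panel and replicate numbers beside the points. The snoRNA host genes lie lower in all 3 shRARRES2_1 libraries than in all 3 shRARRES2_2 libraries, whereas the interferon list is lowest in replicate 2 of shRARRES2_2, of shRARRES2_3 and of shGFP.

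Other lists held no more than 1 called gene. Over all genes 0.0917% were called higher and 47% lay above 0. Of the 19 epithelial junction genes tested CLDN4 was called, and 13 lay above and 6 below 0 with a median log2 difference of 0.43, which was 0.27 without shRARRES2_2 replicate 3. F11R, a junctional adhesion molecule, had 41.9, 40.1 and 35.9 CPM with shRARRES2_1, against 25.6, 9.10 and 20.5 CPM with shRARRES2_2, without passing (limma adjusted p = 0.231). Of the 12 genes of the urokinase and plasmin system SERPINB2 was called, and 7 lay above and 5 below 0, with a median of 0.30 that was -0.17 without shRARRES2_1 replicate 1. SERPINE2, another inhibitor of these proteases, had 39.7, 66.9 and 64.6 CPM with shRARRES2_1, against 5.03, 37.9 and 24.3 CPM with shRARRES2_2 (limma adjusted p = 0.303). In total 4 of the 40 lists held a called member, and 7 of the 25 called genes were in a list. The share of all genes tested that were in a list is not given here. The lists were chosen with earlier results of these data known, so these counts are no test of them.

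Among lists with no call, the snoRNA host genes lay mostly below 0. These are mostly noncoding genes whose introns release small nucleolar RNAs. Of 19 tested 3 lay above 0 and 16 below, where 53% of all genes lay below, and the median log2 difference was -0.57. SNHG16 had 21.8, 23.6 and 20.5 CPM with shRARRES2_1, against 43.3, 66.4 and 52.6 CPM with shRARRES2_2 (log2 difference -1.24, limma adjusted p = 0.150). ZFAS1 had 7.49, 9.74 and 7.83 CPM with shRARRES2_1, against 16.5, 14.3 and 15 CPM with shRARRES2_2 (log2 difference -0.81, limma adjusted p = 0.397). The 77 cytosolic ribosomal protein genes had a median log2 difference of -0.16, which became -0.69 without shRARRES2_1 replicate 1, the library in which their median level was 1050 CPM, against 397 and 357 CPM in the other 2 of that group. It was 0.07 without replicate 2 and 0.15 without replicate 3 of shRARRES2_1.

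More matrix genes lay below 0 than above it, as among all genes. Of 31 genes of collagens and other matrix proteins 20 lay below and 11 above 0, with a median log2 difference of -0.45 and no call. Over all genes 53% lay below 0, with a median of -0.03. SPARC, a matrix glycoprotein, had 322, 206.5 and 199.5 CPM with shRARRES2_1, against 1570, 743 and 730.0 CPM with shRARRES2_2 (log2 difference -1.996, limma adjusted p = 0.178). LUM, the proteoglycan lumican, had 2.815, 2.71 and 3.15 CPM with shRARRES2_1, against 70.2, 8.03 and 13.4 CPM with shRARRES2_2 (log2 difference -2.43, limma adjusted p = 0.232). TGFB2, a growth factor that promotes matrix synthesis and is not among these 31 genes, had 13.2, 28.0 and 29.2 CPM with shRARRES2_1, against 135, 92.4 and 49.4 CPM with shRARRES2_2 (limma adjusted p = 0.231). The related TGFB1, TGFBR1 and TGFBR2 overlapped between the groups (log2 differences 0.04, -0.74 and -0.05). Whether TGFB2 had a part in the matrix genes was not tested. The summed level of the 11 fibroblast markers, of which 6 were tested and which include LUM, was 19.3 to 34.8 CPM with shRARRES2_1 and 30.4 to 110.4 CPM with shRARRES2_2. The lower sums with shRARRES2_1 came from LUM and ACTA2, while COL1A1, COL1A2 and COL3A1 had log2 differences of 0.57, 0.52 and 0.23, and the median of the 6 was 0.03. Whether fibroblasts had a part in the matrix genes was not tested.

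Growth factor signalling differed gene by gene. Of the 17 feedback genes of the ERK pathway 13 lay above and 4 below 0, where 47% of all genes lay above. The median log2 difference of these feedback genes was 0.78. It was 0.27 without shRARRES2_2 replicate 1 and 1.34 without shRARRES2_2 replicate 3. SPRY1, an inhibitor of receptor tyrosine kinase signalling, had 6.001, 12.7 and 12.4 CPM with shRARRES2_1, against 2.01, 1.66 and 3.88 CPM with shRARRES2_2 (log2 difference 1.68, limma adjusted p = 0.150). HBEGF, a ligand of EGFR, lay the other way, at 5.36, 6.93 and 8.74 CPM with shRARRES2_1 and 27.6, 20.3 and 15.9 CPM with shRARRES2_2 (log2 difference -1.46, limma adjusted p = 0.0839). HBEGF had 3.27 to 5.28 CPM with shGFP, and the shRARRES2_3 libraries lay within that range at 3.59 to 4.15 CPM. The shRARRES2_2 libraries lay well above it, whereas the lowest shRARRES2_1 library (5.36 CPM) barely exceeded the highest control library. Of the 27 genes of the integrated stress and unfolded protein responses 22 lay above 0, as did 47% of all genes, and none was called. Their median log2 difference was 0.185, and 0.113 without shRARRES2_1 replicate 1. EDEM1, a member that helps to clear misfolded glycoproteins, had 62.9, 101 and 102 CPM with shRARRES2_1 and 22.2, 31.9 and 38.0 CPM with shRARRES2_2 (log2 difference 1.502, limma adjusted p = 0.0847).

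Genes of cell division lay on both sides of 0. The 31 mitosis genes had a median log2 difference of 0.05 and the 36 DNA replication genes of 0.15, none was called, and the mitosis median ran from -0.37 to 0.36 when single libraries were left out. The DNA replication median was -0.26 without shRARRES2_2 replicate 1, -0.08 without shRARRES2_1 replicate 1 and 0.51 without shRARRES2_2 replicate 2. Per library, the middle level over the mitosis genes was 114, 85.3 and 87.1 CPM in the libraries of shRARRES2_1, against 51.6, 158 and 128 CPM in the shRARRES2_2 libraries. The 13 mitochondrial transcripts had a median of -0.41, and -0.24 without shRARRES2_1 replicate 3. Of these transcripts 2 lay above and 11 below 0, where 53% of all genes lay below.

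Markers of other cell types were mostly low or absent in the 6 libraries compared. Of 18 leukocyte markers 3 were tested, their summed level was 4.73 to 11.1 CPM with shRARRES2_1 and 8.36 to 12.2 CPM with shRARRES2_2, and CD2, MS4A1, TYROBP and FCGR3A had no read in the 6 libraries. Of 13 endothelial markers 2 were tested, and EMCN had no read. The sum of the endothelial markers was 34.9 to 39.1 CPM with shRARRES2_1, mostly EGFL7, and 6.06 to 21.3 CPM with shRARRES2_2. In the shRARRES2_2 libraries EGFL7 had 4.23, 2.32 and 15.9 CPM. Of 23 keratinocyte markers 7 were tested and 6 had no read, among them KRT1 and LGALS7. Their sum was 72.3 to 177.7 CPM with shRARRES2_1 and 67.3 to 79.8 CPM with shRARRES2_2, most of it KRT10. None of the markers of these types was called.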

How the data were processed

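RNA of 12 libraries of 786-O cells was sequenced. For each gene the authors deposited a depth-scaled signal, named TMM-normalized CPM in the table. The submitters' processing notes list CASAVA, Trim Galore 0.6.1, STAR 2.5.2, edgeR and the hg38 (GRCh38) build; the annotation and strand setting are not given in the sources used here. The tests had been set for plain CPM and were kept, although the columns carry scaling factors (0.788 to 1.15). All values were whole multiples of 1 read (100% at a tolerance of 1e-06).

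Levels were tested as log2(CPM + 1) with limma 3.58.1 in R 4.3.3 on group means over all 12 libraries (8 residual degrees of freedom), with eBayes, a trend and Benjamini-Hochberg adjustment at 0.05, after the step was tested on simulated data. Alternatives were other pseudocounts, filters and scalings, edgeR 4.0.16, DESeq2 1.42.0, a replicate block and leaving out libraries. Annotation came from GENCODE 29, which matched 14165 of 14172 genes.

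The rule named the chemerin and HIF genes, called genes reaching a mean of 5 CPM in the higher group without overlap, and up to 5 members of a list; ENPP3, LIPH, RP11-24F11.2 and some list members were added after their values were seen. Genes and lists were chosen with earlier results of these data known. The name of 1 called gene is not reported here.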

Additional observations from a re-analysis of the deposited data

How the results depend on the processing

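The count of 25 calls (13 higher and 12 lower with shRARRES2_1) was within 1.5 times with a pseudocount of 5, without a filter, with a filter of 5 CPM, with median-ratio scaling and without the trend. The genes called were not all the same. In that order 20 of 24, 13 of 20, 20 of 21, 25 of 29 and 24 of 26 calls were among the 25. With a pseudocount of 0.1, 7 genes were called higher. Scaling to a common total gave 6 calls (3 higher, 3 lower). The 6 libraries alone gave 0 limma calls with 1797 genes at an unadjusted p under 0.05, and averaging shRARRES2_1 replicates 2 and 3 gave 0 with 1030. On recovered reads edgeR called 9 genes (3 higher, 6 lower) and DESeq2 284 (137 higher, 147 lower), and 9 and 25 of these were among the 25. Leaving out 1 library at a time gave 0 to 39 calls (0 to 22 higher, 0 to 17 lower). There were 0 limma calls without shRARRES2_1 replicate 2 (998 genes at an unadjusted p under 0.05), shRARRES2_2 replicate 1 (912) or shRARRES2_2 replicate 2 (967), 1 without shRARRES2_1 replicate 3, and 13 without shRARRES2_2 replicate 3. There were 39 without shRARRES2_3 replicate 2, 11 without shRARRES2_3 replicate 3, 11 without shGFP replicate 1 and 8 without shGFP replicate 3. Without shRARRES2_1 replicate 1, 6 genes were called lower. Leaving out shGFP replicate 2 and shRARRES2_3 replicate 2 together, an alternative chosen after seeing the data, gave 45 calls (24 higher, 21 lower). The causes of these shifts were not tested.

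Same-numbered libraries of the 2 hairpins had correlations of their deviations of -0.0995, -0.197 and 0.145, so the numbers were not taken as pairs. Across other groups, shRARRES2_1 and shRARRES2_3 replicates 1, and shRARRES2_3 and shGFP replicates 2, lay close together, which is a hint from the data and not from the design. A fit with the replicate number as a block gave 42 calls (23 higher, 19 lower), 24 of them among the 25. MTPN passed in 20 of the 25 alternatives, AP3M1, GOLGA7B, NDRG1, RAB1A and TMX1 in 18 each, CLDN4 in 10, DENND6A, FABP6 and RNF11 in 9 each, and ENPP3 in 7 of the 20 in which it was tested. The log2 difference of RARRES2 ran from -1.04 to -0.65 and passed in none. CCRL2 passed with a pseudocount of 5, with DESeq2, without shRARRES2_3 replicate 1 or 2, and in the added alternative. SERPINB2, ENPP3, LIPH and RP11-24F11.2 had at most 12 reads in any shRARRES2_2 library, which limits their values.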

Other observations

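Among genes that were not called, did not overlap and had a mean of at least 5 CPM in the higher group, the 4 with the largest positive and the 2 with the largest negative differences are given, chosen after their values were seen. CP, the copper-carrying plasma protein ceruloplasmin, had 16.9, 96.9 and 108 CPM with shRARRES2_1, against 2.96, 1.61 and 4.32 CPM with shRARRES2_2 (log2 difference 3.92, limma adjusted p = 0.125). LCN2, an iron-binding lipocalin, had 47.6, 77.8 and 77.7 CPM with shRARRES2_1, against 3.81, 0.654 and 23.2 CPM with shRARRES2_2 (log2 difference 3.54, limma adjusted p = 0.452). ACP5, tartrate-resistant acid phosphatase, had 6.21, 53.6 and 52.9 CPM with shRARRES2_1, against 4.66, 0.476 and 2.31 CPM with shRARRES2_2 (limma adjusted p = 0.113). For CP and ACP5, replicate 1 of shRARRES2_1 lay well below replicates 2 and 3. IGFBP1, which binds insulin-like growth factors, had 3.98, 17.7 and 15.9 CPM with shRARRES2_1, against 0.265, 1.19 and 0.0872 CPM with shRARRES2_2 (limma adjusted p = 0.188).

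The other way, AHNAK, which encodes a very large scaffold protein beneath the plasma membrane, had 267, 694 and 721 CPM with shRARRES2_1, against 3763, 4543 and 1539 CPM with shRARRES2_2 (log2 difference -2.54, limma adjusted p = 0.153). RAB39B, a small GTPase of membrane traffic, had 0.584, 0.824 and 0.859 CPM with shRARRES2_1, against 12.4, 2.91 and 21.0 CPM with shRARRES2_2 (log2 difference -2.58, limma adjusted p = 0.150). In all, 1026 such genes had every shRARRES2_1 library above every shRARRES2_2 library, and 1625 had every one below.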
